A study of Mus musculus with 18 samples.

Results

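Hedgehog pathway genes were followed in mouse medulloblastoma cells after 3 h of mTOR inhibition, in ribosome footprints and in total RNA of the same lysates. The set holds 9 genes taken by symbol: the receptor Ptch1, the co-receptors Cdon, Boc and Gas1, the signal transducer Smo, the cilium motor protein Kif7, the inhibitor Sufu, and the transcription factors Gli2 and Gli3. A row with their symbol was found for 6 of the 9, out of 15307 genes in the count table, of which 9787 carry a symbol. Gli2, Gas1 and Boc had no row under their symbol and were not analysed here. All of the 6 genes with a row passed the filter on low counts in both assays.

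The cells, named GTML, come from a mouse model of medulloblastoma. In that model a human MYCN transgene together with luciferase is placed under a tetracycline-response element (TRE) and driven through the glutamate transporter promoter GLT1 in neural progenitors of the hindbrain. Every group carries this transgene. One group received Rapalink-1 at 50 nM, one received rapamycin at 5 nM, and the control cells received the solvent DMSO, each for 3 h with 3 replicates. Rapamycin blocks part of the output of mTOR, a kinase that ties protein synthesis to growth signals, from a site away from its catalytic centre. Rapalink-1 is a rapamycin molecule linked to a second inhibitor that sits in the ATP site. The doses of the drugs differ, so a difference between them is one between these treatments as given and not between the compounds at equal dose. The labels name 1 cell line and do not say whether the replicates came from separate cultures, so the p-values measure the spread between these samples, which may be technical.

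Hedgehog signalling runs through the primary cilium. Without ligand, Ptch1 keeps Smo inactive, Sufu holds the Gli proteins back, and Gli3 is cut to a repressor. When a Hedgehog ligand binds Ptch1, helped by Cdon, Boc or Gas1, Smo enters the cilium and Gli proteins become activators, and Ptch1 is itself a classic Gli target. In the developing cerebellum Sonic hedgehog drives the growth of granule neuron progenitors, and loss of Ptch1 or Sufu gives rise to the Sonic hedgehog class of medulloblastoma.

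Ribosome footprints are the mRNA stretches that translating ribosomes shield from nuclease, so their number follows the amount of translation of a gene. The 9 footprint libraries held between 7692625 and 14150068 reads assigned to genes and the 9 RNA libraries between 6788365 and 13300292. Levels are given as CPM, a gene's count as a share of its library, with library sizes scaled by TMM (trimmed mean of M-values), which assumes that most genes do not change. Gene lengths were not used, so CPM values are compared between samples for 1 gene and not between genes. Translational efficiency is the log2 change of footprints minus the log2 change of RNA. Without the TMM factors, on library totals, the median log2 change of all genes with Rapalink-1 moved to 0.28 in footprints, -0.14 in RNA and 0.43 in efficiency, against 0.01, 0.00 and 0.05 with them, so every change below is relative to the scaling used. Both scalings give shares of a library, so a rise or fall common to all genes would not be seen in either.

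As a check of the tissue label, the 4 listed markers of granule neuron progenitors and Sonic hedgehog medulloblastoma that had a row (Zic1, Zic2, Pax6 and Neurod1, of 8 listed) summed to 235 to 250 CPM in DMSO RNA. The 3 group 3 medulloblastoma markers with a row (Impg2, Otx2 and Crx, of 6) summed to 195 to 211 CPM there, so the cells carry markers of both lists. Neurod1 alone had 118 to 137 CPM of the first sum. A row was found for 1 of 9 oligodendrocyte, 2 of 10 microglia and blood, and 1 of 10 vascular and fibroblast markers. In DMSO RNA these came to 7.45 to 10.4, 103 to 143 and 31.1 to 40.5 CPM, in that order. The 4 neural progenitor and astroglia markers with a row, of 8, summed to 252 to 258 CPM there. Markers without a row, Atoh1, Hhip and Olig2 among them, were not analysed here, so a missing row does not show that a marker is absent.

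The mRNAs that lean most on mTOR begin with a C followed by a run of pyrimidines, the 5′ terminal oligopyrimidine (TOP) tract. The first 25 bases from the RefSeq start are therefore shown for the members whose footprints changed most against their RNA and, for contrast, for the elongation factor gene Eef2, a known TOP mRNA. Capitals mark a C followed by at least 4 bases that are C or T.
Ptch1: gcggccgcaaagacctcgggactca
Cdon: ttcccagcctaCTTCTgtaattggg
Gli3: ctggacgggCCCTTagtcgttgaaa
Eef2: gttgacgtcagcggtCTCTTCCgcc
These stretches lie, in build GRCm38.p6, at chr13:63565711-63565735 on the minus strand for Ptch1, and on the plus strand at chr9:35452076-35452100 for Cdon, chr13:15463723-15463747 for Gli3 and chr10:81176631-81176655 for Eef2. The starts used for Ptch1 and Cdon lie inside the gene spans given below and not at their 5′ ends. The run stood at the first base in 0 of the 8 members with a start sequence in the RefSeq table (all but Boc) and in 2.51% of all 32851 starts, read on the transcribed strand only. Anywhere in the 25 bases it was found in 3 of the 8 members, Cdon, Gli3 and Sufu, and in 29.5% of all starts. The known TOP mRNAs Eef2, Eef1a1 and Tpt1 also had it at the first base in 0 of 3 cases. These RefSeq starts therefore do not show the tract where it is known to be, and nothing follows from them on whether a member has one.

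With Rapalink-1 most of the Hedgehog genes had more footprints relative to other genes. Footprints of 5 of the 6 genes rose against DMSO, namely Ptch1, Cdon, Kif7, Sufu and Gli3, where 53.7% of 11281 genes were called, 25.7% higher and 28.0% lower. Translational efficiency rose for 3 of the 6, Ptch1, Cdon and Gli3, and fell for 0, where 39.6% of 11627 genes were called, 20.7% higher and 18.9% lower. In RNA, Kif7 rose and Smo fell, that is 1 of 6 in each direction, where 38.2% of 11271 genes were called, 19.4% higher and 18.8% lower. The median log2 change of the 6 genes was 0.44 in footprints, -0.11 in RNA and 0.53 in efficiency, beside 0.01, 0.00 and 0.05 for all genes tested. Calls are edgeR quasi-likelihood tests at a Benjamini-Hochberg adjusted p under 0.05 over all genes. On library totals 5556 genes were called higher and 840 lower in efficiency, against 2407 and 2194 with TMM, and all 6 Hedgehog genes were then called higher. On the same totals the split was 5400 higher and 1587 lower in footprints, against 2896 and 3161, and 1123 higher and 3731 lower in RNA, against 2182 and 2123.

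With rapamycin the receptor Ptch1 and the co-receptor Cdon were the genes that moved. The RNA of Ptch1 and Cdon rose, 2 of the 6 genes, where 24.1% of all genes were called, 13.6% higher and 10.5% lower. Footprints of Ptch1 alone rose, 1 of 6, where 18.1% were called, 8.75% higher and 9.40% lower. Efficiency passed the threshold for 0 of the 6 genes in the edgeR test, where 15.4% of all genes were called, 5.97% higher and 9.39% lower. In the DESeq2 Wald test it also passed for 0 of the 6, where 5.87% of all genes were called higher and 9.01% lower. At an unadjusted p under 0.05 the edgeR test gave 1 of the 6, Cdon. Medians of the 6 genes were 0.11 in footprints, 0.21 in RNA and -0.14 in efficiency, beside 0.00, -0.00 and -0.01 for all genes. Without TMM the split of called genes was 1391 higher and 654 lower in footprints, against 987 and 1060, and 921 higher and 843 lower in efficiency, against 694 and 1092. Both drugs were set against the same DMSO samples, so the comparisons are not independent of each other. Names of the footprint libraries carry RP-B for DMSO and Rapalink-1 but RP for rapamycin, and the meaning is not given. In footprints and efficiency, a difference between rapamycin and either other group cannot be told apart from what these labels mark.

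Set directly against rapamycin, Rapalink-1 gave higher efficiency for 4 of the 6 genes, Ptch1, Cdon, Gli3 and Sufu, where 47.2% of all genes were called, 24.5% higher and 22.7% lower. Footprints were higher for 5 of the 6, all but Smo, where 53.1% were called, 25.4% higher and 27.6% lower. RNA was lower for 4, Ptch1, Cdon, Smo and Gli3, and higher for 1, Kif7, where 41.1% were called, 21.5% lower and 19.6% higher. The median log2 change of the 6 genes was 0.42 in footprints, -0.37 in RNA and 0.82 in efficiency, beside 0.01, 0.00 and 0.05 for all genes. On library totals the split was 4979 higher and 1830 lower in footprints, 1056 higher and 3963 lower in RNA, and 5201 higher and 1192 lower in efficiency, against 2870 and 3119, 2213 and 2422, and 2847 and 2636 with TMM.

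**Figure D1:**
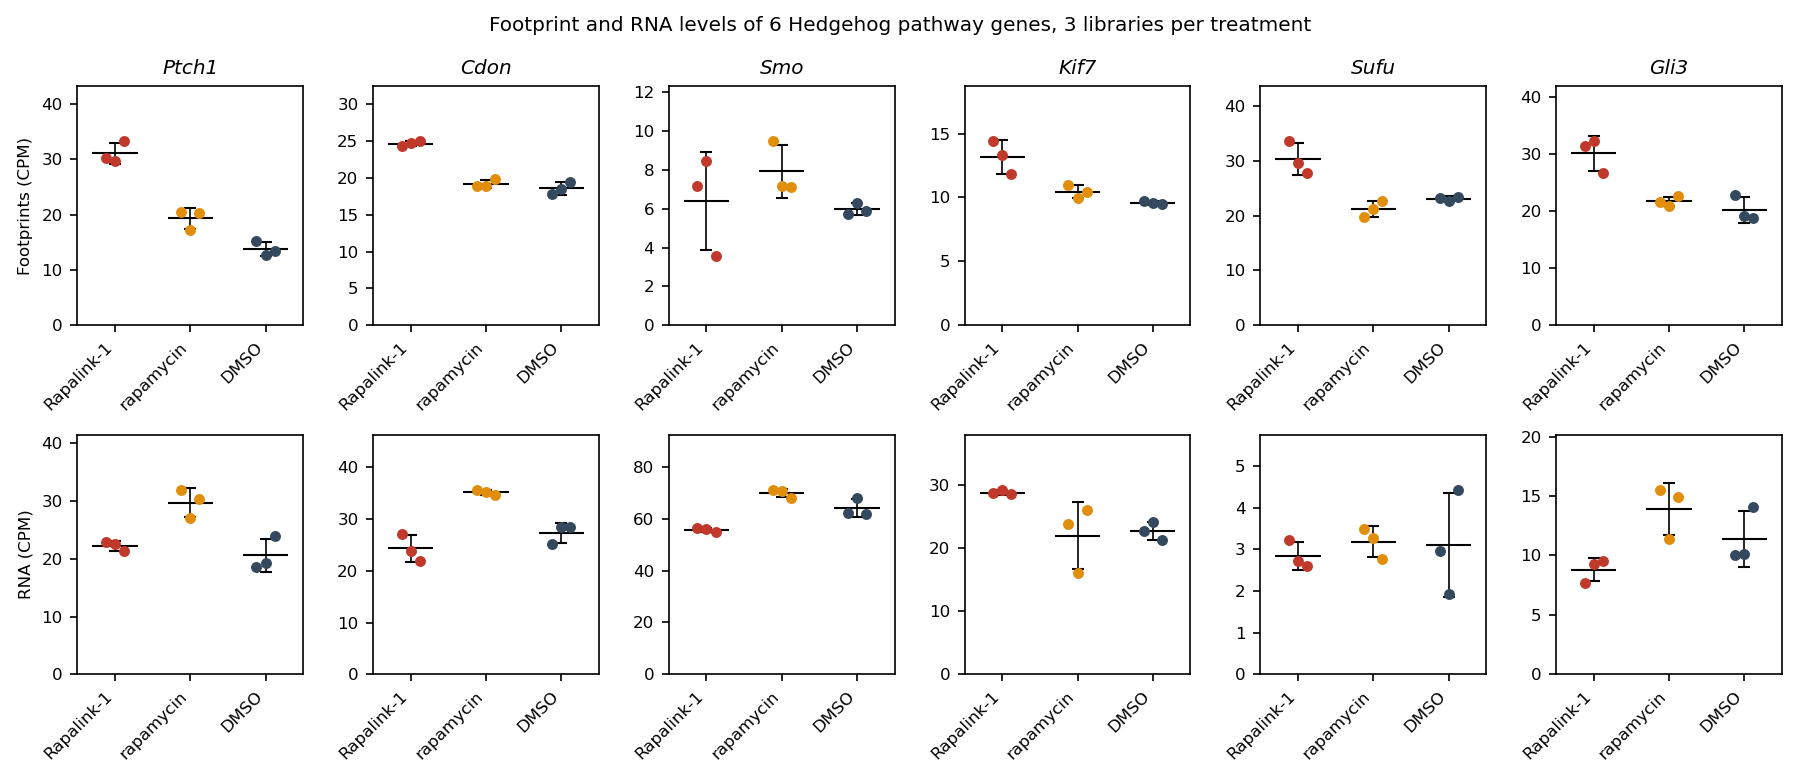
Footprint (top) and RNA (bottom) levels in CPM, on axes that start at 0, of the 6 Hedgehog genes with a row. Points are libraries, long bars the mean and whiskers the SD of 3 libraries; footprints of Ptch1 with Rapalink-1 sit between 29.7 and 33.3 CPM, above all DMSO libraries at 12.8 to 15.2 CPM.

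Ptch1, the receptor that holds Smo inactive (chr13:63508328-63573460 in GRCm38.p6), had the largest footprint change of the 6 with Rapalink-1. Its footprints were 30.3, 29.7 and 33.3 CPM with Rapalink-1, 20.5, 17.2 and 20.4 CPM with rapamycin, and 15.2, 12.8 and 13.4 CPM with DMSO. Each Rapalink-1 library was above each rapamycin library, and each rapamycin library was above each DMSO library. The RNA stood at 22.9, 22.6 and 21.3 CPM with Rapalink-1, 31.9, 27.0 and 30.3 CPM with rapamycin, and 18.6, 19.3 and 23.9 CPM with DMSO. Here rapamycin was highest with no overlap, while Rapalink-1 and DMSO overlapped. Against DMSO the footprints rose 2.22-fold with Rapalink-1 (log2 change 1.15 ± 0.11 SE, adjusted p = 4.5e-11) and 1.39-fold with rapamycin (0.47 ± 0.12, adjusted p = 0.0036). The RNA log2 change was 0.13 ± 0.11 with Rapalink-1 (adjusted p = 0.37), and rapamycin raised the RNA by 0.54 ± 0.11 (adjusted p = 1.2e-04).

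The ratio of footprints to RNA was taken within each lysate. For Ptch1 it was 1.32, 1.31 and 1.56 with Rapalink-1, 0.643, 0.638 and 0.671 with rapamycin, and 0.821, 0.660 and 0.561 with DMSO. The Rapalink-1 lysates stood clear of the rest, and the rapamycin lysates lay within the range of DMSO. With Rapalink-1 the log2 change of efficiency was 1.06 (95% interval 0.74 to 1.38, adjusted p = 2e-07), at the 96.8th percentile of all genes tested. With rapamycin it was -0.07 (95% interval -0.39 to 0.25, adjusted p = 0.84), and without DMSO replicate 1 the sign turned to 0.09. Rapalink-1 against rapamycin differed by 1.13 ± 0.15 in efficiency (adjusted p = 4.8e-09), with footprints 0.68 ± 0.11 higher (adjusted p = 1.2e-06) and RNA lower by -0.41 ± 0.10 (adjusted p = 0.001).

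Cdon, a co-receptor of the immunoglobulin superfamily that binds Hedgehog ligands (chr9:35421528-35507652), rose in footprints and efficiency with Rapalink-1 by a smaller log2 change. Its footprints were 24.3, 24.7 and 25 CPM with Rapalink-1, 18.9, 18.9 and 19.8 CPM with rapamycin, and 17.8, 18.5 and 19.5 CPM with DMSO. The Rapalink-1 libraries lay above all others, and rapamycin and DMSO overlapped. RNA levels of Cdon were 27.2, 23.8 and 22.0 CPM with Rapalink-1, 35.6, 35.3 and 34.7 CPM with rapamycin, and 25.1, 28.4 and 28.4 CPM with DMSO, so that the rapamycin libraries were highest. The footprint log2 change was 0.41 ± 0.11 with Rapalink-1 (adjusted p = 0.0015) and 0.05 ± 0.11 with rapamycin (adjusted p = 0.82). In RNA it was -0.16 ± 0.097 with Rapalink-1 (adjusted p = 0.21), or -0.29 on library totals, which passed the threshold (adjusted p = 0.012). Rapamycin raised the RNA by 0.37 ± 0.095 (adjusted p = 0.0028).

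Footprints per RNA of Cdon were 0.892, 1.04 and 1.14 with Rapalink-1, 0.533, 0.534 and 0.570 with rapamycin, and 0.709, 0.652 and 0.688 with DMSO. The 3 groups did not overlap, with Rapalink-1 above DMSO and rapamycin below it. Efficiency rose by 0.60 with Rapalink-1 (95% interval 0.32 to 0.89, adjusted p = 4.9e-04). With rapamycin the log2 change was -0.32 (95% interval -0.61 to -0.04), which missed the threshold after adjustment (adjusted p = 0.12). Rapalink-1 exceeded rapamycin by 0.93 ± 0.14 in efficiency (adjusted p = 1e-07).

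Smo, the seven-span membrane protein that carries the signal past Ptch1 (chr6:29735497-29761366), had few footprints, with 33 to 117 reads per library. They came to 7.18, 8.43 and 3.58 CPM with Rapalink-1, 9.47, 7.17 and 7.10 CPM with rapamycin, and 5.74, 6.31 and 5.88 CPM with DMSO. Rapalink-1 spanned the whole DMSO range because of its replicate 3, and all rapamycin libraries were above DMSO. In RNA, with 434 to 885 reads, Smo had 56.4, 56.0 and 55.0 CPM with Rapalink-1, 71.1, 70.8 and 68.1 CPM with rapamycin, and 62.3, 68.2 and 61.9 CPM with DMSO. All Rapalink-1 libraries were below DMSO. The RNA fell by 0.20 on the log2 scale with Rapalink-1 (SE 0.067, adjusted p = 0.013), and this call was lost without DMSO replicate 2 (-0.15, adjusted p = 0.091).

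Changes of Smo at the ribosome were not resolved. The footprint log2 change was 0.11 with Rapalink-1 (95% interval -0.34 to 0.56) and 0.41 with rapamycin (-0.02 to 0.85, adjusted p = 0.18). Efficiency changed by 0.36 with Rapalink-1 (95% interval -0.05 to 0.76, adjusted p = 0.16) and by 0.30 with rapamycin (-0.09 to 0.68, adjusted p = 0.34). Without Rapalink-1 replicate 3 the Rapalink-1 value was 0.61 and passed the threshold (adjusted p = 0.0091), and on library totals it was 0.73 (adjusted p = 0.0018).

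Kif7, a kinesin of the cilium tip that organises Gli regulation there (chr7:79698098-79715772), rose in both assays with Rapalink-1. Its footprints were 14.4, 13.3 and 11.8 CPM with Rapalink-1, 11.0, 9.98 and 10.4 CPM with rapamycin, and 9.74, 9.53 and 9.45 CPM with DMSO, so that the 3 groups did not overlap. RNA gave 28.6, 29.1 and 28.5 CPM with Rapalink-1, 23.8, 16.0 and 26.0 CPM with rapamycin, and 22.6, 24.0 and 21.2 CPM with DMSO. Rapalink-1 was highest here too, and the second rapamycin library was far below the other two. The log2 change with Rapalink-1 was 0.47 ± 0.14 in footprints (adjusted p = 0.0065), 0.34 ± 0.12 in RNA (adjusted p = 0.02) and 0.17 in efficiency (95% interval -0.21 to 0.54, adjusted p = 0.52).

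These calls of Kif7 stood near the threshold. The RNA call was lost on library totals (0.20, adjusted p = 0.17) and without any 1 of the Rapalink-1 libraries or DMSO replicate 1 or 3 (0.30 to 0.34, adjusted p between 0.052 and 0.068). The footprint call was lost without Rapalink-1 replicate 1 (0.39, adjusted p = 0.052). With rapamycin the changes were 0.13 ± 0.15 in footprints, -0.07 ± 0.12 in RNA and 0.19 ± 0.19 in efficiency, none called. Set against rapamycin, Rapalink-1 gave 0.40 ± 0.12 in RNA (adjusted p = 0.005), lost without rapamycin replicate 2 (0.20, adjusted p = 0.14) and on library totals (0.26, adjusted p = 0.065). In footprints that difference was 0.34 ± 0.14 (adjusted p = 0.039), and it was lost under the DESeq2 Wald test (adjusted p = 0.059), with no count filter (adjusted p = 0.071) and without either Rapalink-1 replicate 1 or 2 or any rapamycin replicate (0.26 to 0.37). The gene overlaps Ticrr, a protein-coding gene, and the sources used here do not say whether counting used strand, so reads of the pair may not be told apart.

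Sufu, which holds Gli proteins in the cytoplasm (chr19:46396896-46488804), had many more reads in footprints than in RNA. Sufu held 162 to 416 footprint reads per library, which gave 33.6, 29.6 and 27.8 CPM with Rapalink-1, 19.7, 21.3 and 22.7 CPM with rapamycin, and 23.2, 22.7 and 23.5 CPM with DMSO. Rapalink-1 lay above both other groups, which touched each other. RNA rested on 22 to 41 reads per library and gave 3.23, 2.71 and 2.60 CPM with Rapalink-1, 3.49, 3.28 and 2.77 CPM with rapamycin, and 2.96, 1.92 and 4.42 CPM with DMSO. The DMSO libraries alone spanned a wider range than all the drug-treated ones. The footprint log2 change was 0.39 ± 0.10 with Rapalink-1 (adjusted p = 0.0015) and -0.12 ± 0.11 with rapamycin (adjusted p = 0.46).

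Efficiency of Sufu had wide intervals. It changed by 0.46 with Rapalink-1 (95% interval -0.07 to 1.00, adjusted p = 0.17), and passed the threshold on library totals (0.84, adjusted p = 0.0066) and without DMSO replicate 2 (0.73, adjusted p = 0.036). With rapamycin the value was -0.25 (95% interval -0.78 to 0.29). Rapalink-1 against rapamycin differed by 0.71 ± 0.26 (adjusted p = 0.019), and the call was lost without rapamycin replicate 1 (0.59, adjusted p = 0.098) or 2 (0.68, adjusted p = 0.064). The footprints alone differed by 0.52 ± 0.10 between the drugs (adjusted p = 4.3e-05).

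Gli3, the Gli factor that is mainly cut to a repressor (chr13:15463723-15730026), rose in efficiency by a log2 change whose interval overlapped that of Ptch1. Its footprints were 31.5, 32.3 and 26.7 CPM with Rapalink-1, 21.7, 20.9 and 22.6 CPM with rapamycin, and 22.9, 19.1 and 18.8 CPM with DMSO. Rapalink-1 was above all others with no overlap. The RNA was 7.67, 9.25 and 9.52 CPM with Rapalink-1, 15.5, 11.4 and 14.9 CPM with rapamycin, and 10, 10.1 and 14.1 CPM with DMSO. Here Rapalink-1 was lowest with no overlap. Footprints rose by 0.56 ± 0.11 with Rapalink-1 (adjusted p = 3.2e-05), against a log2 change of 0.09 ± 0.11 with rapamycin (adjusted p = 0.65). The RNA log2 change of -0.35 ± 0.16 with Rapalink-1 missed the threshold (adjusted p = 0.081) but passed it on library totals (-0.48, adjusted p = 0.012).

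Footprints per RNA of Gli3 were 4.11, 3.50 and 2.80 with Rapalink-1, 1.40, 1.84 and 1.52 with rapamycin, and 2.28, 1.89 and 1.33 with DMSO. Every Rapalink-1 lysate was above every other lysate. The log2 change of efficiency was 0.94 with Rapalink-1 (95% interval 0.56 to 1.33, adjusted p = 6.8e-05), at the 95.7th percentile of all genes. With rapamycin it was -0.22 (95% interval -0.59 to 0.16, adjusted p = 0.50), and the RNA log2 change of 0.30 ± 0.15 (adjusted p = 0.15) passed the threshold only without DMSO replicate 3 (0.45, adjusted p = 0.032). Rapalink-1 exceeded rapamycin by 1.16 ± 0.19 in efficiency (adjusted p = 5.1e-07), with RNA lower by -0.65 ± 0.15 (adjusted p = 5.6e-04). The span of the gene overlaps that of Gm6556, a long noncoding RNA, that of Smo the pseudogene Gm13717 and that of Cdon the small nuclear RNA LOC115487300, so with strand unknown some of their reads are uncertain.

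**Figure D2:**
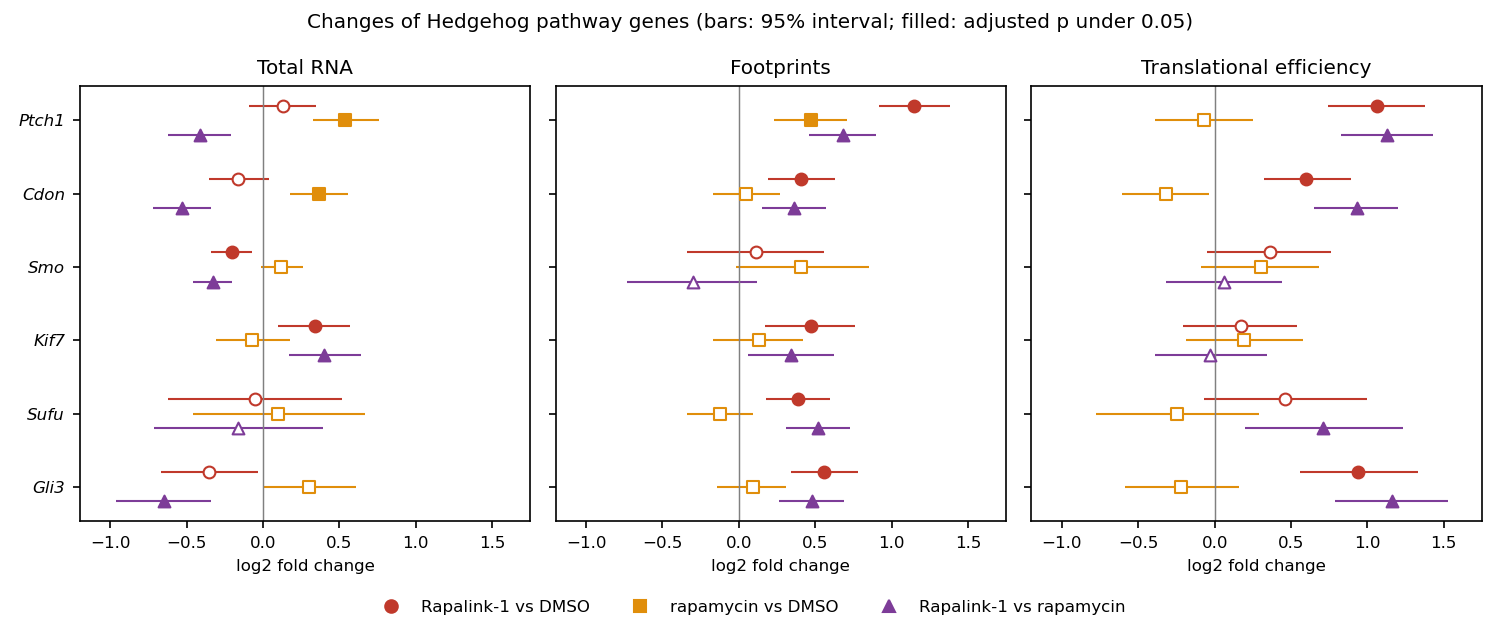
Log2 changes of the 6 genes in total RNA, footprints and translational efficiency, with bars for the 95% interval; circles are Rapalink-1 against DMSO, squares rapamycin against DMSO and triangles Rapalink-1 against rapamycin, filled where the adjusted p is under 0.05. Efficiency with Rapalink-1 against DMSO is filled for Ptch1 at 1.06, Cdon at 0.60 and Gli3 at 0.94, and no square is filled there.

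**Figure D3:**
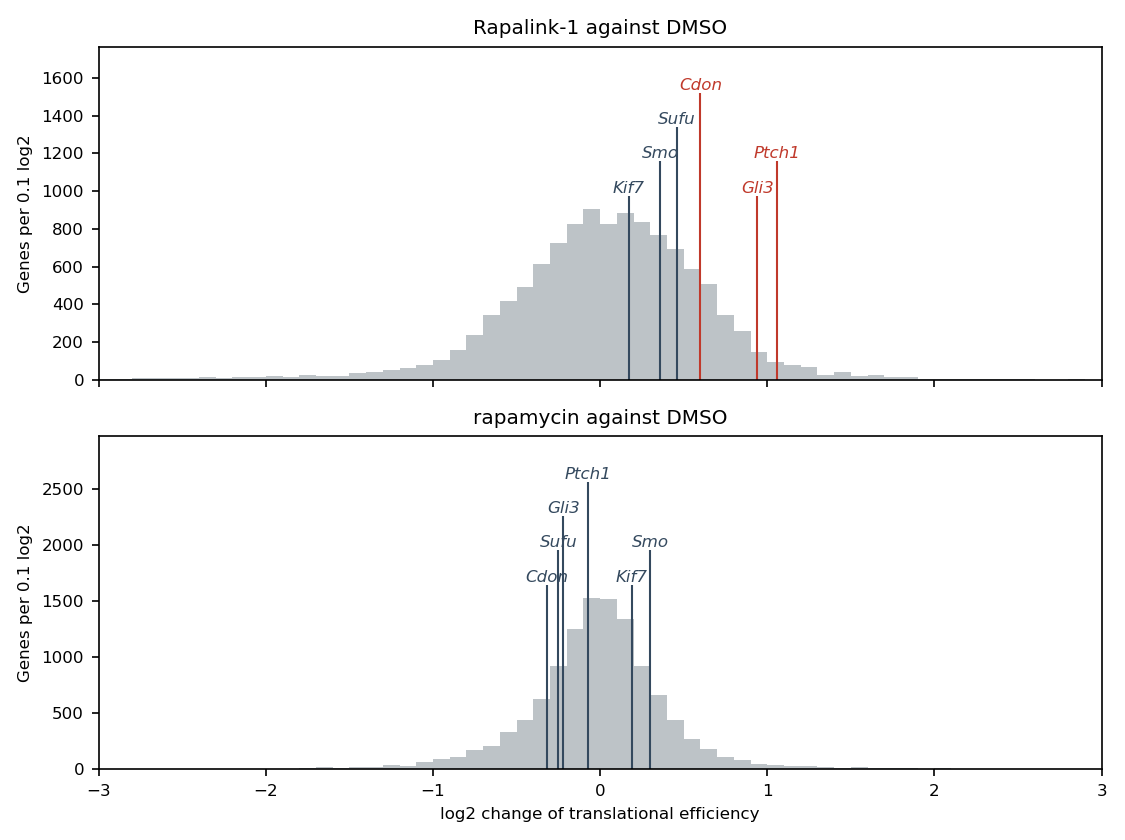
Number of genes per 0.1 log2 step of the change in translational efficiency for all 11627 genes tested, with lines at the Hedgehog genes, red where called; line height has no meaning. With Rapalink-1 all 6 lines lie right of the median of 0.05, from Kif7 at 0.17 to Ptch1 at 1.06, and with rapamycin they lie on both sides of 0.

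The members differed among themselves in how many footprints they had per RNA without drug. In DMSO cells the log2 difference of footprints minus RNA was 2.97 ± 0.17 for Sufu and 0.86 ± 0.14 for Gli3, and -0.55 ± 0.12 for Ptch1, -0.56 ± 0.10 for Cdon, -1.25 ± 0.14 for Kif7 and -3.45 ± 0.13 for Smo. That placed Sufu at the 98.7th percentile and Smo at the 0.671th percentile of 11627 genes. All 6 passed the test, 2 higher and 4 lower, where 72.0% of all genes were called, 36.0% higher and 36.0% lower, and on library totals 30.0% and 42.5%. Ptch1 and Cdon did not differ beyond their errors, and the other neighbours in this order did not overlap in their 95% intervals. The Smo ratio in DMSO lysates was 0.0921, 0.0925 and 0.0950 footprint CPM per RNA CPM, against 7.82, 11.8 and 5.32 for Sufu. The stretch of each transcript that the authors counted is not given in the sources used here, so the ratio between genes also carries how much untranslated sequence the RNA count holds.

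**Figure D4:**
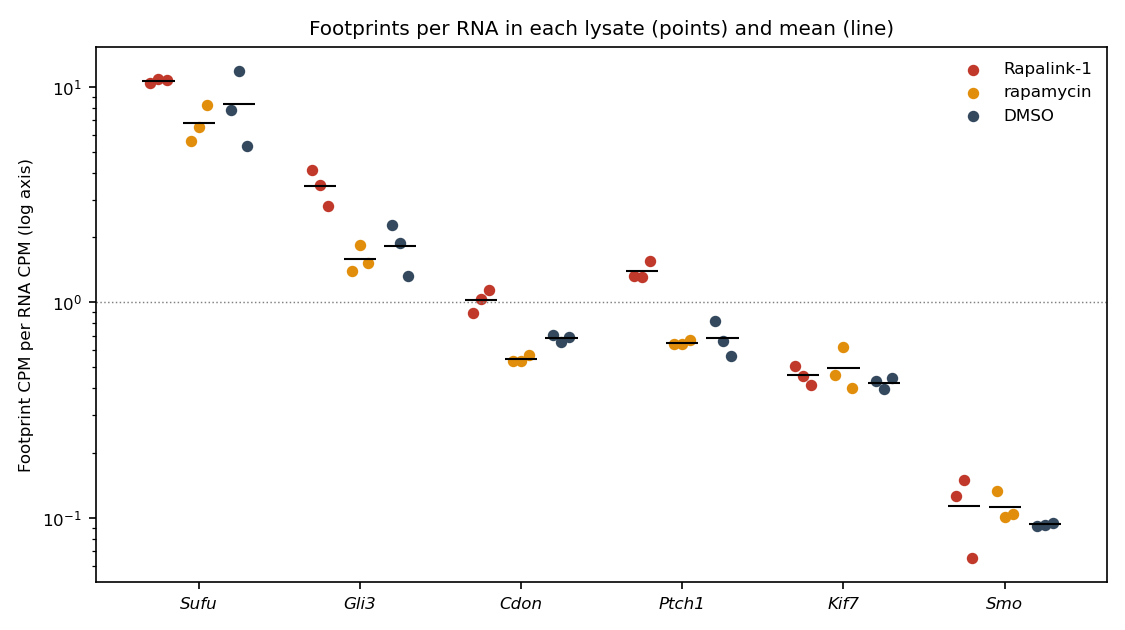
Footprint CPM per RNA CPM in each lysate, on a log axis, for the 6 genes in falling order of the ratio; points are lysates and lines the mean of 3. Sufu lies above 5 and Smo below 0.2 in every lysate, and the Rapalink-1 lysates of Gli3, Cdon and Ptch1 stand above their rapamycin and DMSO lysates.

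Other genes of the pathway, taken from 5 lists, moved in both directions with Rapalink-1. Among 25 tested genes that act between Smo and Gli or in Gli turnover, efficiency rose for 7 and fell for 5, where 20.7% of all genes were called higher and 18.9% lower, with a median log2 change of 0.06 beside 0.05 for all genes. Those counts are near the share of all genes. The kinases Gsk3b (0.99 ± 0.13, adjusted p = 4.5e-09) and Csnk1g3 (1.20 ± 0.15, adjusted p = 4.8e-09) rose most clearly. Csnk1a1, the casein kinase that with protein kinase A and Gsk3b marks Gli proteins for cutting, rose by 0.34 ± 0.076 (adjusted p = 2.4e-04), and Cul1, a scaffold of the ubiquitin ligase that sends marked Gli3 to cutting, rose by 0.45 ± 0.081 (adjusted p = 6.8e-06). Footprints of Csnk1a1 were not called (log2 change 0.08, adjusted p = 0.24), and its RNA changed by -0.22 (adjusted p = 0.00034). The 5 that fell in efficiency were the casein kinases Csnk1d (-0.39 ± 0.086, adjusted p = 0.00025) and Csnk1e (-0.25 ± 0.10, adjusted p = 0.041), the Smo kinase Grk2 (-0.34 ± 0.11, adjusted p = 0.008), the arrestin Arrb2 (-0.37 ± 0.15, adjusted p = 0.048) and the ubiquitin ligase Itch (-0.27 ± 0.10, adjusted p = 0.03). On library totals 0 of the 25 fell in efficiency, where 7.22% of all genes were called lower. With rapamycin 1 of the 25 rose and 3 fell in efficiency, where 5.97% of all genes were called higher and 9.39% lower, Gsk3b among those lower (-0.42 ± 0.12, adjusted p = 0.013), a call lost without rapamycin replicate 1 (-0.35, adjusted p = 0.096) or DMSO replicate 1 (-0.36, adjusted p = 0.085). Footprints of Gsk3b were not called with rapamycin (-0.08, adjusted p = 0.45), and its RNA rose by 0.33 (adjusted p = 0.026).

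Of 32 tested genes of transport in the primary cilium, 14 rose and 3 fell in footprints with Rapalink-1, where 25.7% of all genes were called higher and 28.0% lower. In RNA 12 rose and 2 fell, where 19.4% and 18.8% were called, but on library totals 6 rose and 5 fell, where 9.96% and 33.1% were called. In efficiency 6 rose and 5 fell, where 20.7% and 18.9% were called. The median log2 changes of the 32 genes were 0.25 in footprints, 0.24 in RNA and 0.00 in efficiency, beside 0.01, 0.00 and 0.05 for all genes. Dync2h1, the motor of return transport, had 25.1, 26.8 and 30.8 CPM in footprints with Rapalink-1, 13.7, 13.3 and 15.9 CPM with rapamycin, and 14.9, 14.7 and 14.8 CPM with DMSO, and its efficiency rose by 1.02 ± 0.15 with Rapalink-1 (adjusted p = 1.2e-07). The Rapalink-1 libraries of Dync2h1 were well above all others. Ttbk2, a kinase that starts cilium growth, rose by 1.25 ± 0.22 in efficiency (adjusted p = 6.1e-06) and the motor gene Kif3b by 0.65 ± 0.15 (adjusted p = 4.7e-04). Footprints of Kif3b were not called (log2 change -0.02, adjusted p = 0.87), and its RNA changed by -0.63 (adjusted p = 5e-06). Efficiency of Ttc21b, a part of the retrograde transport complex, fell by 0.59 (SE 0.11, adjusted p = 1.9e-05), a call lost on library totals (-0.22). Footprints of Ttc21b were not called (-0.12, adjusted p = 0.22), and its RNA rose by 0.50 (adjusted p = 4.8e-07). With rapamycin the efficiency of 0 of the 32 rose and that of 3 fell, where 5.97% of all genes were called higher and 9.39% lower. The count of 3 is near the share of all genes. Those that fell were Ift172 (-0.67 ± 0.18, adjusted p = 0.0073), Kifap3 (-0.37 ± 0.13, adjusted p = 0.046) and Ttc21b (-0.33 ± 0.11, adjusted p = 0.037). The call of Ttc21b was lost on library totals (-0.28, adjusted p = 0.086), with no count filter, with only the treatments compared and without any 1 of the rapamycin replicates or DMSO replicate 1 or 2 (-0.36 to -0.26), and the alternatives were not run for Ift172 and Kifap3.

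Ligand and surface genes were thinly covered. Of 9 listed genes for ligands and their release only Hhat and Disp1 had a row, and Shh itself was not analysed here. With Rapalink-1 the efficiency of Hhat, which attaches palmitate to the ligand, changed by -0.82 ± 0.26 (adjusted p = 0.0096), a call lost on library totals (-0.44), without Rapalink-1 replicate 1 (-0.68) and without DMSO replicate 2 (-0.51). Efficiency of Disp1, which releases the ligand, rose by 0.41 ± 0.17 (adjusted p = 0.047), and this was lost with no count filter, with only the treatments compared, under both replicate blocks and without Rapalink-1 replicate 1 or 3 or any DMSO replicate (0.34 to 0.48). Of 14 further receptors and surface regulators 6 were tested. Among them, Lrp2, Gpc6 and Efcab7 were not called in efficiency with Rapalink-1, at 0.47 ± 0.25, -0.40 ± 0.23 and 0.23 ± 0.21. With rapamycin the efficiency of Gpc6 fell by 0.79 (SE 0.22, adjusted p = 0.0083), a call lost without rapamycin replicate 2 (-0.62, adjusted p = 0.084). Footprints of Gpc6 were not called with rapamycin (0.07, adjusted p = 0.76), and its RNA rose by 0.86 (adjusted p = 0.00058).

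Described Gli target genes other than Ptch1 and the co-receptors moved in both directions. Of 19 listed, 7 were tested, and efficiency with Rapalink-1 rose for 4 and fell for 2, where 20.7% of all genes were called higher and 18.9% lower. Foxm1, a driver of mitotic genes, rose by 0.85 ± 0.14 (adjusted p = 2.5e-06), Bmi1, a Polycomb protein, by 0.69 ± 0.11 (adjusted p = 4.7e-07) and Pax6, a factor of granule neuron progenitors, by 0.50 ± 0.10 (adjusted p = 1.1e-04). Jag2, a Notch ligand, fell by 0.47 (SE 0.096, adjusted p = 6.1e-05), and the cell cycle gene Ccnd1 fell by 0.67 (SE 0.17, adjusted p = 8.7e-04). Both of these calls were lost on library totals, at -0.10 for Jag2 and -0.30 for Ccnd1. Mycn rose by 0.30 ± 0.065 in efficiency (adjusted p = 2e-04), but its row may also hold reads of the human transgene. In RNA 2 of the 7 rose and 4 fell with Rapalink-1, where 19.4% of all genes were called higher and 18.8% lower. On library totals 1 rose and 5 fell, where 9.96% and 33.1% were called. With rapamycin 2 rose and 3 fell in RNA, where 13.6% and 10.5% were called, and on library totals 2 rose and 2 fell, where 13.9% and 9.93% were called. Gli1 and Hhip, targets much used as readouts, had no row and were not analysed here.

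**Figure D5:**
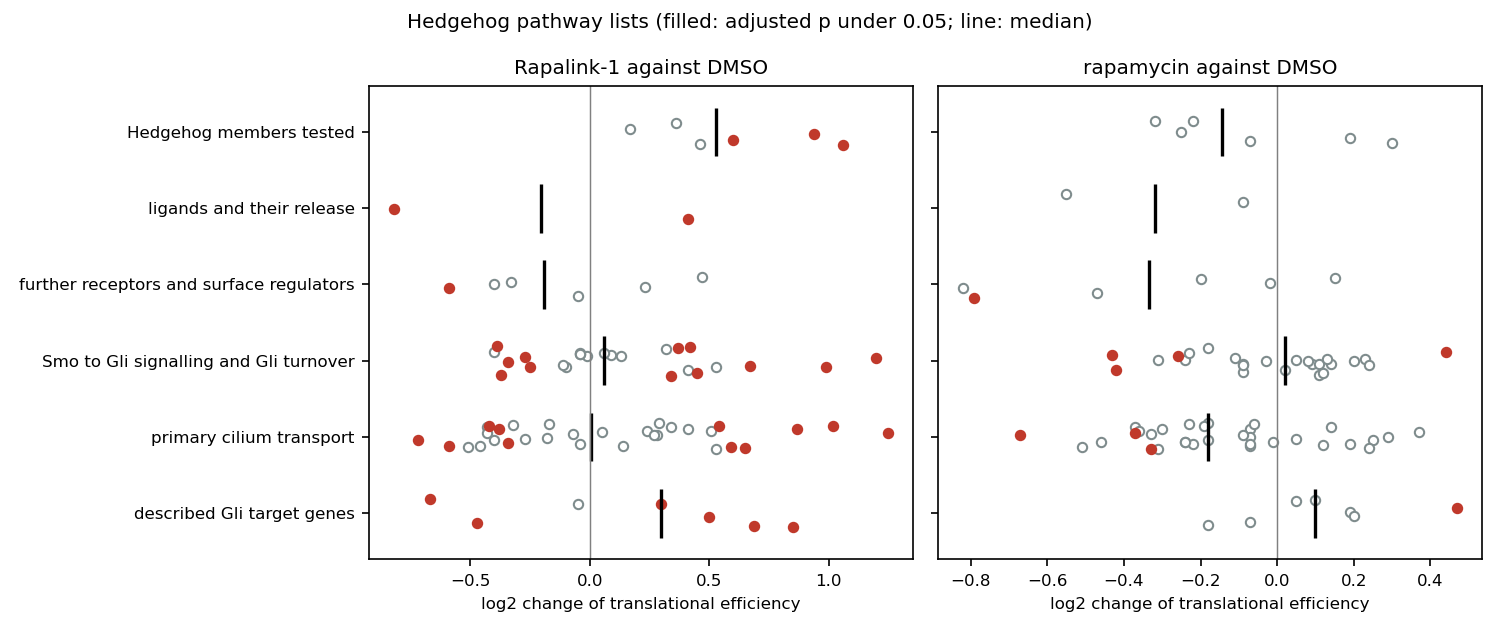
Log2 change of translational efficiency of each tested gene in the members and in the 5 pathway lists, Rapalink-1 (left) and rapamycin (right) against DMSO; filled points have an adjusted p under 0.05, short vertical lines are medians, and vertical scatter has no meaning. The members' median is 0.53 with Rapalink-1 and -0.14 with rapamycin, and each of the 5 lists spreads to both sides of 0 with Rapalink-1.

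On library totals the efficiency counts of these lists shifted upward with Rapalink-1, as did those of all genes. In RNA the counts between Smo and Gli shifted downward, from 3 higher and 9 lower of 25 with TMM to 1 and 14. The RNA counts of all genes shifted downward too, from 19.4% higher and 18.8% lower with TMM to 9.96% and 33.1% on library totals. Efficiency then rose for 18 and fell for 0 of the 25 genes between Smo and Gli, against 7 and 5 with TMM, and rose for 15 and fell for 0 of the 32 cilium genes, against 6 and 5. It rose for 5 and fell for 0 of the 7 targets, against 4 and 2 with TMM, and for 1 and 0 of the 2 ligand genes, against 1 and 1. Among all 11627 genes 47.8% were called higher and 7.22% lower in efficiency on library totals. The 15 of 32 cilium genes were near that share.

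Some marker sums moved with Rapalink-1 beside these results. The 4 markers of neural progenitors and astroglia with a row (Nes, Vim, Fabp7 and Slc1a3, of 8) summed to 224 to 226 CPM in footprints with Rapalink-1, 393 to 408 CPM with rapamycin and 414 to 427 CPM with DMSO. Their RNA summed to 320 to 330 CPM with Rapalink-1, 262 to 269 CPM with rapamycin and 252 to 258 CPM with DMSO. Vim, an intermediate filament gene, made up most of these sums and fell by 1.36 in footprints (SE 0.054, adjusted p = 1.2e-23) and rose by 0.48 in RNA (SE 0.049, adjusted p = 7.6e-11) on the log2 scale. Footprints of the glutamate transporter Slc1a3 rose by 0.33 (SE 0.096, adjusted p = 0.0034), and Nes and Fabp7 were not called in either assay. The 4 granule neuron progenitor markers came to 606 to 658 CPM in footprints with Rapalink-1, 490 to 506 CPM with rapamycin and 379 to 416 CPM with DMSO, and the 3 group 3 markers to 606 to 653, 446 to 476 and 358 to 403 CPM in the same order. The microglia and blood pair had unlike values in footprints. Itgam had 21.5 to 23.0 CPM with Rapalink-1 and 55.0 to 83.1 CPM with DMSO (log2 change -1.71 ± 0.14, adjusted p = 3.2e-07), and Hbb-bs had 1.61 to 3.79 CPM with Rapalink-1 and 0.83 to 2.2 CPM with DMSO (0.83 ± 0.40, adjusted p = 0.081). In efficiency Itgam fell by 1.54 (SE 0.23, adjusted p = 0.00013) and Hbb-bs rose by 1.05 (SE 0.36, adjusted p = 0.017), and neither was called in RNA. Acta2 of the vascular list had 238 to 253 CPM in footprints with Rapalink-1 and 280 to 318 CPM with DMSO, and Cnp of the oligodendrocyte list had footprints of 13.0 to 16.1 and 12.7 to 16.5 CPM. The falls of Vim and Itgam were thus in footprints, and the RNA log2 change of Itgam was -0.13 (adjusted p = 0.46). For RNA levels of bulk samples, fewer cells of a type and less RNA per cell cannot be told apart. The part of these markers in the results was not tested.

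Genes with changes most like those of the 3 members called in efficiency were named by the smallest root mean square difference over 4 log2 changes, those of RNA and footprints with each drug against DMSO. For Ptch1 they were Rmnd5a (difference 0.0796), Kdm6a (0.0924) and Csrnp3 (0.118) of 6090 genes compared. For Cdon they were Kdm2a (0.0287), Usp32 (0.0334) and Cep295 (0.0356), and for Gli3 they were Ncoa2 (0.0281), Lnpep (0.0603) and Foxm1 (0.0700) of 6091. Ptch1 thus had a more distant nearest gene than Cdon and Gli3. Rmnd5a changed by 1.11 in footprints and 0.23 in RNA with Rapalink-1, and by 0.57 and 0.60 with rapamycin, close to the values of Ptch1 given above.

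The authors' deposited table of comparisons gave the same call as the tests here for 34 of 36 values of the 6 genes, with log2 changes that differed by at most 0.03. The 2 exceptions were called in the authors' deposited table and not here. They were the RNA of Gli3 with Rapalink-1, lower there (log2 change -0.38), and the footprints of Smo with rapamycin, higher there (0.42).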

How the data were processed

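Total RNA and ribosome footprints were sequenced in 9 libraries each, made with the ARTseq kit, and the RNA came from an aliquot of the same lysate, per the labels. Reads were placed on GRCm38 (mm10), per the submitters' processing notes; no source used here names the aligner, the counting program or the use of strand. The count values, 1 row per transcript, are raw whole-number counts as deposited by the authors. The deposited comparison tables hold the signal column baseMean, log2 fold changes with their errors, the score column stat, and p-value columns, all made by the authors; the tool is not named per the file headers. From these tables only symbols, log2 changes, errors and adjusted p-values were used. All columns were matched to a sample, so 0 were left out.

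The 27382 transcript rows, 6378 of them 0 in all libraries, were collapsed to 15307 genes by equal counts or a shared Ensembl gene, keeping the row with most reads in the 62 genes with different rows. Rows without a symbol held 1.83 to 2.15% of reads and stayed in the fits. Genes passing filterByExpr (minimum count 10, minimum total 15) were fitted with edgeR 4.0.16 (R 4.3.3, limma 3.58.1) by quasi-likelihood with TMM factors, separately for each assay, and jointly over 18 libraries for efficiency as the interaction of assay and treatment. Standard errors come from the log2 change and its F statistic. P-values were adjusted by Benjamini-Hochberg over all genes and calls made under 0.05. Replicates varied with a biological coefficient of variation of 5.72% (RNA fit), 6.38% (footprint fit) and 6.08% (joint fit). Figures and summaries used pandas 2.3.3 and matplotlib 3.10.9. The scripts were tested on simulated data.

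All members are reported. From each of 5 pathway lists up to 4 tested genes with the smallest p in efficiency with Rapalink-1 were named, and Mycn and Ccnd1 always. A result that this rule would name is not reported here. For each member called there, the 3 nearest genes with a mean log2 CPM of at least 4 in both assays were named. The genes called with rapamycin, those lower between Smo and Gli and the single markers were named after their values were seen. Members and lists were chosen with earlier results of these data known. Positions and start sequences are RefSeq's, build GRCm38.p6, matched by symbol for 9 and 8 of the 9 members.

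Alternatives were library totals without TMM, DESeq2 1.42.0 size factors, the DESeq2 Wald test, no count filter, only the treatments compared, summed transcript rows, replicate blocks and leaving out each replicate. Deviations of same-numbered libraries from their group means correlated between -0.175 and 0.198 across treatments, over 0.1 in 5 of 18 pairs, all footprints. These correlations do not settle whether replicate numbers pair the treatments. Footprint and RNA libraries of the same lysate correlated between -0.075 and 0.175, over 0.1 in 3 of 9 pairs, all DMSO (0.163, 0.175 and 0.146). No libraries of a group agreed within sampling noise.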

Additional observations from a re-analysis of the deposited data

How the results depend on the processing

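Of 954 repeats of the members' values under the alternatives, 913 kept the direction and the side of the threshold, 19 lost a call, 8 gained one and 14 turned sign. The rises in efficiency of Ptch1, Cdon and Gli3 with Rapalink-1 were called in every alternative run. On library totals the count of members called there was 6 in place of 3. Leaving out single replicates gave 1 to 2 members called in RNA with Rapalink-1. On library totals signs turned for Ptch1 (-0.01) and Mycn (-0.12, adjusted p = 0.015) in RNA with Rapalink-1, for Csnk1a1 in efficiency with rapamycin (0.02), and for Kif7 in efficiency with Rapalink-1 against rapamycin (0.30).

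Leaving out replicates turned signs only of log2 changes that were not called, over these ranges. With Rapalink-1 against DMSO they were -0.32 to 0.23 for Sufu RNA, -0.02 to 0.04 for Mycn RNA and -0.10 to 0.38 for Smo footprints. With rapamycin they were -0.21 to 0.13 for Kif7 RNA and -0.17 to 0.39 for Sufu RNA. In efficiency with rapamycin they were -0.20 to 0.09 for Ptch1, -0.50 to 0.02 for Sufu, -0.05 to 0.02 for Csnk1a1, -0.19 to 0.07 for Disp1, -0.24 to 0.07 for Kif3b and -0.23 to 0.15 for Ttbk2. In efficiency with Rapalink-1 against rapamycin they were -0.17 to 0.13 for Kif7 and -0.14 to 0.32 for Smo. Leaving out a replicate removes samples; the cause was otherwise not tested.

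The replicate number as a block changed no call of a member. With the replicate block 4618 genes were called in efficiency with Rapalink-1, against 4601 without it, and 1781 against 1786 with rapamycin. Pairing by lysate gave 4607 and 1801. In the list genes the block ended the call of Disp1. With the replicate block all 6 members were still called in footprints against RNA in DMSO. Read numbers of the members were lowest for Sufu in RNA, at 22 to 41 per library, and for Smo in footprints, at 33 to 117.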
